A study of Homo sapiens with 6 samples.

Results

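Aminoacyl-tRNA synthetases are the enzymes that join each amino acid to its transfer RNA, the step that fixes the genetic code before translation. Human cells use separate sets for cytosolic and mitochondrial translation. Both sets are encoded by nuclear genes, and the mitochondrial enzymes are imported after they are made. Many cytosolic synthetase genes are known targets of ATF4, the transcription factor that is made when the kinases of the integrated stress response phosphorylate eIF2 alpha, for example when uncharged tRNA activates GCN2.

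The 37 genes described here were chosen by name, with the older symbols that the deposited table uses, from its 56303 rows. All 37 had a row and all 37 passed the filter on low counts. Of these, 21 encode cytosolic enzymes or subunits and 16 encode mitochondrial enzymes. GARS and KARS give both forms from a single gene and were counted with the cytosolic ones. The libraries came from A549, an established line of human lung adenocarcinoma. One group received an siRNA against HNRNPD (3 libraries, replicates 1 to 3), and the other a negative-control siRNA (3 libraries, replicates 1 to 3). No other treatment, time or dose is in the labels, nor is it given there if a single siRNA sequence was used or if each library had its own culture. The p-values therefore stand on the variation among these 6 libraries, part or all of which may be technical.

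HNRNPD encodes AUF1, a protein that binds AU-rich RNA. Its own mRNA stood at 169.0 ± 7.29 CPM, its counts scaled to a fixed library total, in HNRNPD siRNA libraries, against 950.1 ± 13.2 CPM in control libraries (SD, n = 3 each), and no library went against its label. The libraries held 37151094 to 43005090 counts. The 37 synthetase genes had 16 to 16517 counts each in a library, and 33 of them had at least 100 counts in every library. The epithelial keratin genes KRT8 and KRT18 stood at 2055 and 588 CPM in HNRNPD siRNA libraries, against 3327 and 993 CPM in control libraries, and of 5 epithelial markers 3 were lower and 1, EPCAM, was higher. Of 7 markers of blood, endothelium and fibroblasts, 3 had enough counts to be tested, and the blood markers PTPRC and CD3E did not exceed 0.0477 CPM in any library. The part of these shifts in the results was not tested. Bulk counts cannot tell a change in RNA per cell from a change in the mix of cells.

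After HNRNPD siRNA the cytosolic set moved unevenly, with 12 of its 21 genes lower, 5 higher and 4 not called. In the mitochondrial set 4 of 16 genes were lower, 3 were higher and 9 were not called. A gene was called at an adjusted p under 0.05 in edgeR's quasi-likelihood test, with adjustment over all 20465 genes tested. In that test 27.8% of all genes were called lower and 28.4% higher, together 56.1%. Among the 11334 genes that averaged 5 CPM or more, a level that most of the synthetases exceed, 36.8% were lower and 30.5% higher, together 67.3%. The share called lower was 57.1% of the cytosolic genes and 25% of the mitochondrial genes. The groups did not overlap for 26 of the 37 synthetase genes, 16 lower and 10 higher, while this held for 62.6% of all genes tested (30.9% lower and 31.7% higher) and for 72.3% of those that averaged 5 CPM or more (39.5% lower and 32.8% higher). The median log2 fold change was -0.28 over the cytosolic genes, -0.02 over the mitochondrial genes and 0.01 over all genes tested. The sign of the mitochondrial median turned with the processing, from -0.06 to 0.02 when single libraries were dropped. Fitted log2 fold changes of single genes ran from -0.89 for CARS to 0.97 for TARS2.

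**Figure D1:**
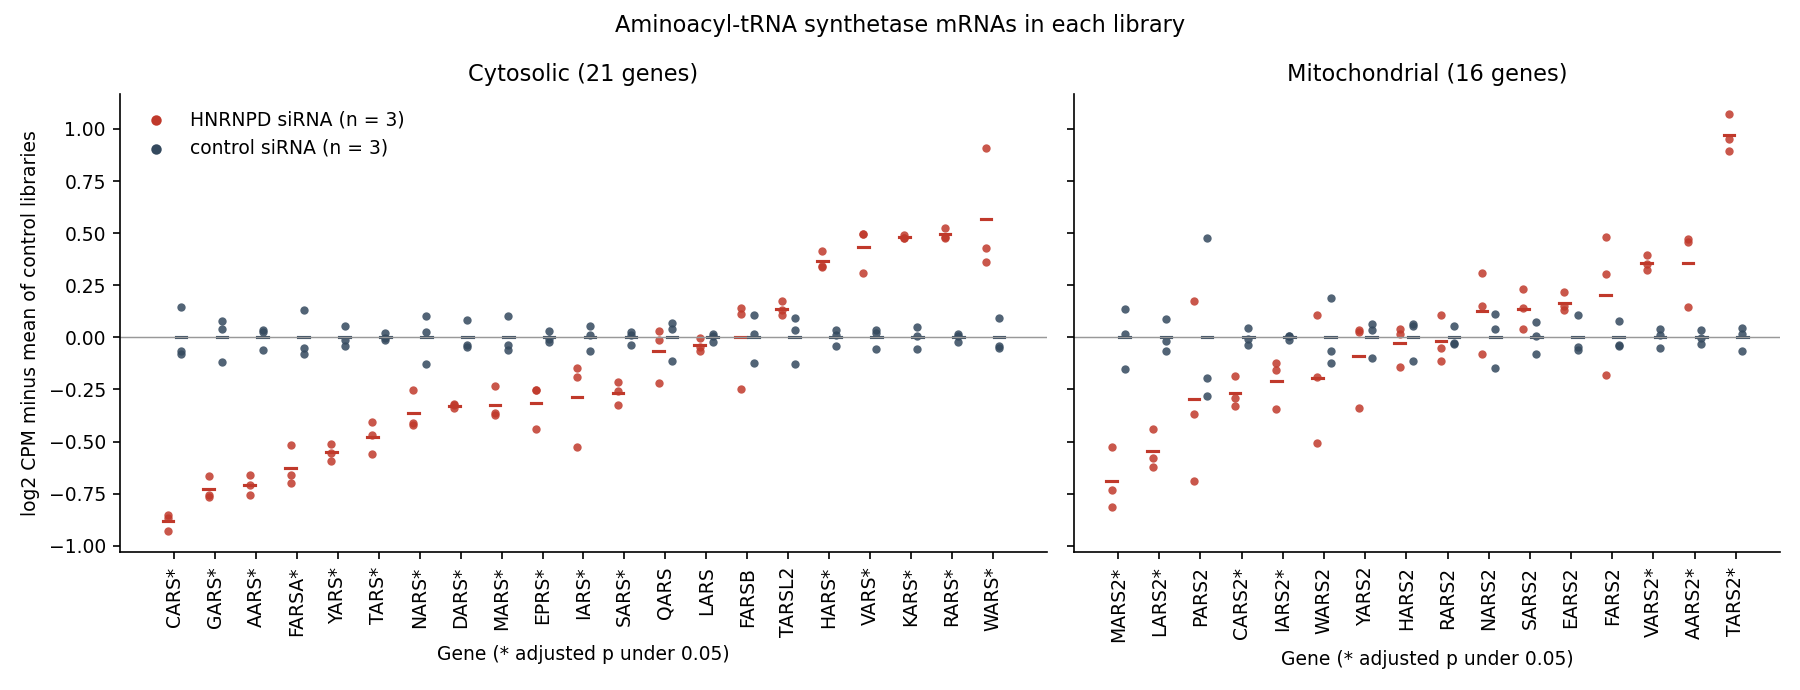
The plot shows, for each synthetase gene, log2 CPM in each library minus the mean of the 3 control libraries, with HNRNPD siRNA libraries in red on the left of each gene and control libraries in dark blue on the right; short bars are group means and asterisks mark genes with an adjusted p under 0.05. The 12 cytosolic genes at the left of the first panel and TARS2 at the right of the second have no overlap between the groups.

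CARS, which encodes cysteinyl-tRNA synthetase, had the largest called fall. It stood at 97.8, 102.3 and 103.0 CPM in HNRNPD siRNA replicates 1 to 3, against 176.1, 206.1 and 178.2 CPM in control replicates 1 to 3. The groups were far apart, and control replicate 2 was the highest library. The fitted fall was 1.85-fold (log2 fold change -0.89, SE 0.07, edgeR adjusted p = 2.13e-09). CARS spans bases 3000922 to 3057613 of chromosome 11 on the minus strand of GRCh38. GARS, the glycyl-tRNA synthetase gene on chromosome 7 (30594681 to 30634033), had 103.5, 97.0 and 96.4 CPM in HNRNPD siRNA libraries and 168.7, 172.8 and 151.1 CPM in control libraries. That is a 1.66-fold fall (log2 fold change -0.73, SE 0.06, edgeR adjusted p = 1.74e-08). AARS, the alanyl-tRNA synthetase gene on chromosome 16 (70252295 to 70289543), stood at 187.1, 193.0 and 199.6 CPM in HNRNPD siRNA libraries, against 323.4, 321.1 and 303.1 CPM in control libraries. Its fall was 1.63-fold (log2 fold change -0.71, SE 0.06, edgeR adjusted p = 6.82e-09), with each group close together.

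Cytosolic phenylalanyl-tRNA synthetase is built from alpha subunits, encoded by FARSA, and beta subunits, encoded by FARSB, and of these genes FARSA was called lower and FARSB was not called. FARSA had 25.5, 26.2 and 29 CPM in HNRNPD siRNA libraries and 45.4, 40.1 and 39.2 CPM in control libraries. It fell 1.54-fold (log2 fold change -0.63, SE 0.08, edgeR adjusted p = 1.24e-06). FARSB had 40.4, 39.6 and 30.8 CPM in HNRNPD siRNA libraries and 37, 33.7 and 39.5 CPM in control libraries, so its groups overlapped (log2 fold change 0.01, SE 0.09, edgeR adjusted p = 0.952). The log2 ratio of FARSA to FARSB was -0.66, -0.59 and -0.09 in HNRNPD siRNA libraries, against 0.29, 0.25 and -0.01 in control libraries. The groups did not overlap, but HNRNPD siRNA replicate 3 came near control replicate 3. The difference was -0.63, at a two-sided exact permutation p of 0.1, the smallest that 3 against 3 libraries can give, and this ratio was chosen after its values were seen.

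The other 8 cytosolic genes called lower had log2 fold changes from -0.55 to -0.27. YARS, the tyrosyl enzyme, fell 1.47-fold to 60.6 ± 1.72 CPM in HNRNPD siRNA libraries, against 88.9 ± 2.99 CPM in control libraries (SD, n = 3 each). TARS, the threonyl enzyme, was at 211.2, 190.0 and 202.1 CPM in HNRNPD siRNA libraries and 276.8, 279.2 and 283.4 CPM in control libraries, a 1.39-fold fall (log2 fold change -0.48, SE 0.06, edgeR adjusted p = 1.39e-06). In both genes the groups were well apart. NARS, the asparaginyl enzyme, fell 1.29-fold. DARS, the aspartyl enzyme, fell 1.26-fold. MARS, the methionyl enzyme, was at 112.2, 113.0 and 123.6 CPM in HNRNPD siRNA libraries and 139.1, 156.0 and 141.4 CPM in control libraries (log2 fold change -0.32, SE 0.06, edgeR adjusted p = 0.000278). EPRS, a fused protein that charges both glutamate and proline tRNAs, fell 1.24-fold. SARS, the seryl enzyme, which also loads serine on selenocysteine tRNA, fell 1.2-fold. IARS, the isoleucyl enzyme, fell 1.21-fold, with 103.4, 106.9 and 82.2 CPM in HNRNPD siRNA libraries and 122.8, 119.0 and 113.0 CPM in control libraries. Without HNRNPD siRNA replicate 3, its lowest library, the log2 fold change of IARS was -0.18 (edgeR adjusted p = 0.007) in place of -0.28. The exons of MARS share a fraction of 0.124 of their bases with DDIT3 and ARHGAP9 on the other strand, and DDIT3 was higher after HNRNPD siRNA (log2 fold change 1.29). The sources used here do not say whether counting used the strand, so reads of such neighbours cannot be told apart.

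WARS, which encodes tryptophanyl-tRNA synthetase and is known as a gene induced by interferon gamma, had the largest called rise of the cytosolic set. Its levels were 44.1, 42.0 and 61.4 CPM in HNRNPD siRNA libraries and 34.9, 31.8 and 31.7 CPM in control libraries. All HNRNPD siRNA libraries were above all control libraries, and replicate 3 stood apart at the top. The rise was 1.5-fold (log2 fold change 0.59, SE 0.14, edgeR adjusted p = 0.00856), and without HNRNPD siRNA replicate 3 the log2 fold change was 0.39 (adjusted p = 8.29e-06). WARS spans bases 100333788 to 100376805 of chromosome 14 on the minus strand. A fraction of 0.106 of its exonic bases is shared with genes on the other strand, among them WDR25, which was also higher (log2 fold change 0.72).

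The other 4 cytosolic genes that rose encode the enzymes for the basic amino acids arginine, lysine and histidine and for valine. RARS, the arginyl enzyme on chromosome 5 (168486445 to 168519299), was at 115.2, 111.7 and 112.1 CPM in HNRNPD siRNA libraries, against 79.0, 81.2 and 80.5 CPM in control libraries. It rose 1.41-fold (log2 fold change 0.49, SE 0.06, edgeR adjusted p = 5.5e-07). KARS, the lysyl enzyme on chromosome 16 (75627474 to 75648643), was at 99.8, 100.9 and 99.9 CPM in HNRNPD siRNA libraries and 74.4, 72.1 and 69.0 CPM in control libraries. Its rise was 1.39-fold (log2 fold change 0.48, SE 0.06, edgeR adjusted p = 1.18e-06). Both genes had an SD under 2 CPM across HNRNPD siRNA libraries. VARS, the valyl enzyme on chromosome 6 (31777518 to 31795953), had 66.0, 66.0 and 58.0 CPM in HNRNPD siRNA libraries and 48.0, 47.4 and 45.0 CPM in control libraries. It rose 1.35-fold (log2 fold change 0.44, SE 0.07, edgeR adjusted p = 2.03e-05). HARS, the histidyl enzyme, rose 1.29-fold, and a fraction of 0.183 of its exonic bases is shared with WDR55, HARS2 and DND1, of which none was called. The genes not called, with FARSB, were QARS (log2 fold change -0.07), LARS (-0.04) and TARSL2 (0.13), which encode the glutaminyl enzyme, the leucyl enzyme and a threonyl enzyme related to TARS. LARS was among the most even, at 263.4 ± 6.17 CPM in HNRNPD siRNA libraries and 270.6 ± 3.65 CPM in control libraries (SD, n = 3 each).

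Of the 11 cytosolic synthetase genes that are widely described as induced by ATF4, 10 were lower and 1, WARS, was higher. Their median log2 fold change was -0.36, and without WARS the values ranged from -0.89 for CARS to -0.27 for SARS. Of the other 10 cytosolic genes 2 were lower (FARSA and DARS), 4 were higher and 4 were not called, with a median of 0.07. The share called lower was 90.9% of the 11 genes and 20% of the other 10. It was 27.8% of all genes tested and 36.8% of those that averaged 5 CPM or more. For genes called higher these shares were 9.09%, 40%, 28.4% and 30.5%. The list of 11 was drawn up with earlier results of these data known. ATF4 itself was lower, at 170.8, 172.1 and 180.7 CPM in HNRNPD siRNA libraries, against 225.6, 234.5 and 224.1 CPM in control libraries (log2 fold change -0.39, SE 0.06, edgeR adjusted p = 1.19e-05). ATF4 protein, which is known to be set mainly by translation, was not measured.

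The element that ATF4 is known to bind with C/EBP proteins, spelled TGATGNAA, was searched on both strands of the RefSeq promoter windows of GRCh38.p14, which run from 250 bases before a start site to 50 bases after it. At least 1 window was held for 30 of the 37 genes, which left out DARS, LARS, TARSL2, VARS, YARS, AARS2 and VARS2, and a gene with several start sites had a window for each. The motif was present for 7 of the 10 cytosolic genes that fell and had a window, for 0 of the 6 cytosolic genes that did not fall, and for 1 of 14 mitochondrial genes (YARS2). A gene was counted if any of its windows held the motif. Of all 35116 windows 3.62% held it, which is a share per window and not per gene. A match describes letters and is not a bound site. The 100 bases around each cytosolic match are shown because they belong to genes that fell. They are read along each gene's own strand, with the match in capitals. TTGCATCA and TTTCATCA are matches on the other strand of the gene.
AARS: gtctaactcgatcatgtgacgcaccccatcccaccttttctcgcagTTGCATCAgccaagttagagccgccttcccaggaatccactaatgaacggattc
CARS: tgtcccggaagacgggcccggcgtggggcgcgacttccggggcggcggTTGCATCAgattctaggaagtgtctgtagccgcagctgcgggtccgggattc
GARS: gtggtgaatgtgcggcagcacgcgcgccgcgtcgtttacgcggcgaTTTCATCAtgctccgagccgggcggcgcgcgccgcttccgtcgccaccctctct
IARS: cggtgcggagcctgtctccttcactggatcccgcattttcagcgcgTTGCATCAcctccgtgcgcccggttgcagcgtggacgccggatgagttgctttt
MARS: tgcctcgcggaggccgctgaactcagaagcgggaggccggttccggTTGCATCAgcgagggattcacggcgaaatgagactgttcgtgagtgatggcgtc
NARS: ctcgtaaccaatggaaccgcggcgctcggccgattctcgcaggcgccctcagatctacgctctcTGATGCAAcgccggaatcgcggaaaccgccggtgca
TARS: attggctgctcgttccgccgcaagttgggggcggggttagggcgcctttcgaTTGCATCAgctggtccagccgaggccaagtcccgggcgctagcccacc

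Counting the start site as base 1, the match began at base -187 in AARS, -2 in CARS, -33 in GARS, -13 in IARS, -4 in MARS, 15 in NARS and 3 in TARS. The match in AARS lay much further from its start site than those of the other 6 genes. The same letters, TTGCATCA, stood in AARS, CARS, IARS, MARS and TARS, and NARS held their reverse complement, TGATGCAA, read along its strand. The stretches lie at chr16:70289640-70289739, chr11:3057374-3057473, chr9:92293657-92293756 and chr18:57621787-57621886 on the minus strand and at chr7:30594799-30594898, chr12:57488018-57488117 and chr5:33440915-33441014 on the plus strand. EPRS, SARS and FARSA, which also fell, had no match in their windows.

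WARS has windows for 2 start sites, and the inner one held the interferon-stimulated response element core, spelled GAAA, any 2 bases, GAAA, and the interferon gamma activated sequence, TTCNNNGAA, both in capitals in the stretch shown here because WARS was the exception among the described ATF4 targets. It lies at chr14:100375378-100375504 on the minus strand. The first match, GAAACTGAAA, began at base -55 and the second, TTCTGAGAA, at base -142. The first motif was present in 3.57% of all windows and the second in 7.66%. Among the other synthetase genes the first was found for EARS2 alone and the second for CARS, TARS, PARS2 and WARS2.
WARS: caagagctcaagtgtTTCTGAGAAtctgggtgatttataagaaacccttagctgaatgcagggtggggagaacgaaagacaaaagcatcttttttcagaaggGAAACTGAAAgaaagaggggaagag

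Values of 2 genes known to be driven by interferon are given beside those of WARS; they were chosen after their values were seen. GBP1, a guanylate-binding protein, was at 43.0, 42.3 and 98.1 CPM in HNRNPD siRNA libraries, against 2.02, 1.91 and 1.88 CPM in control libraries. IRF1, a transcription factor, was at 87.7, 79.0 and 120.8 CPM in HNRNPD siRNA libraries and 28.0, 32.3 and 29.1 CPM in control libraries. Both rose (log2 fold changes 4.98 and 1.69, edgeR adjusted p = 0.00167 and 0.000423), and in both HNRNPD siRNA replicate 3 was the highest library. The level in HNRNPD siRNA replicate 3 over the mean of replicates 1 and 2 was 1.43 for WARS, 1.45 for IRF1 and 2.30 for GBP1. Whether these genes have a part in the rise of WARS was not tested.

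**Figure D2:**
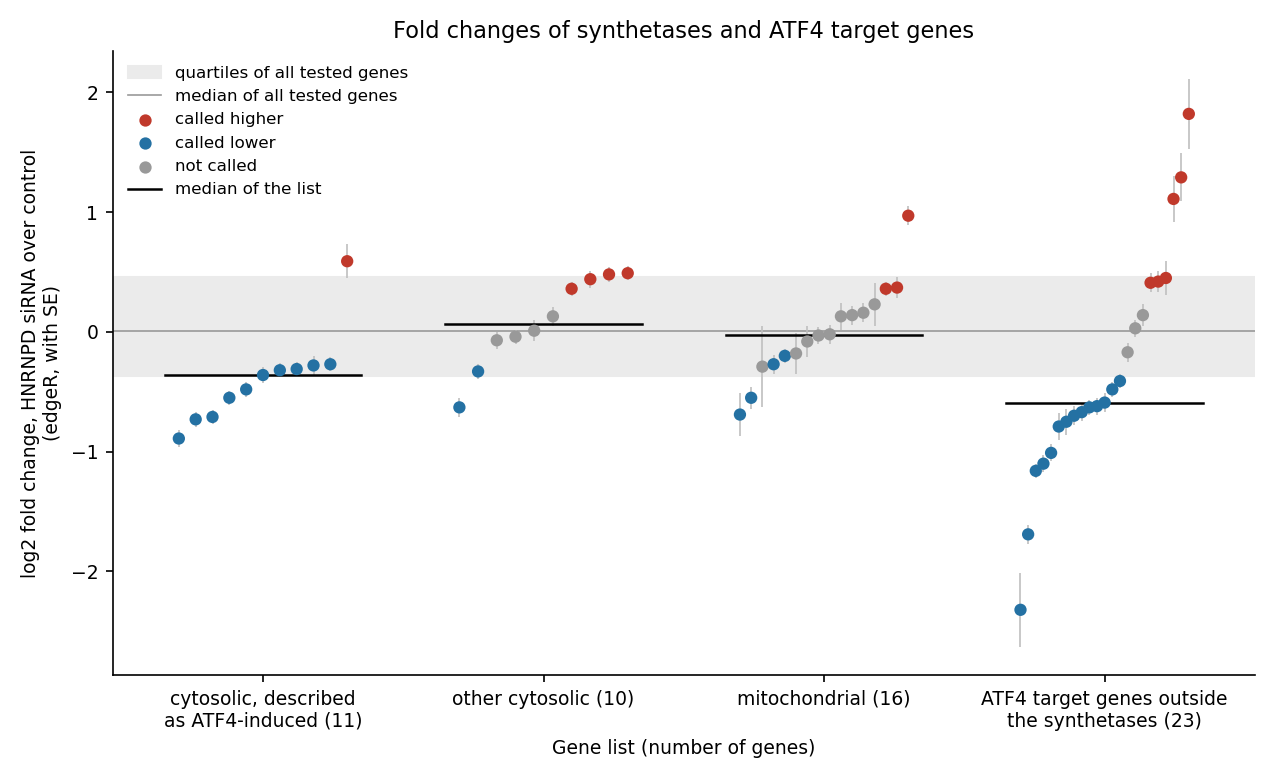
Fitted log2 fold changes of HNRNPD siRNA over control, with SE, for the cytosolic synthetases described as ATF4-induced, the other cytosolic ones, the mitochondrial ones and 23 ATF4 target genes outside the synthetases; colours give the call, black bars the list medians (-0.36, 0.07, -0.02 and -0.59), and grey the median and quartiles (-0.37 to 0.46) of all genes tested. The red point above the first list is WARS.

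Among 23 ATF4 target genes outside the synthetases, 14 were lower, 6 were higher and 3 were not called, with a median log2 fold change of -0.59. The share lower was 60.9%, against 27.8% of all genes tested and 36.8% of those at 5 CPM or more, a level that most of the 23 reached. MTHFD2, a mitochondrial folate enzyme, fell 2.24-fold, STC2, a secreted glycoprotein, fell 3.24-fold, and the serine synthesis genes PHGDH and PSAT1 fell 2.14-fold and 2.01-fold. ASNS, which makes asparagine, fell 1.63-fold to 28.8 ± 3.70 CPM in HNRNPD siRNA libraries, against 46.9 ± 1.35 CPM in control libraries (SD, n = 3 each). The 6 that rose were the stress transcription factor genes ATF3 (log2 fold change 1.82), DDIT3 (1.29) and ATF5 (0.41), together with CTH, TRIB3 and SESN2. Genes on the other strand cover a fraction of 0.332 of the exonic bases of MTHFD2, 0.28 of DDIT3 and 0.212 of ATF5. STC2, PHGDH, PSAT1 and ASNS share no exonic base with another gene. Of the sensors of the integrated stress response, EIF2AK2, the RNA-activated kinase PKR, was at 555.8 ± 44.2 CPM in HNRNPD siRNA libraries and 102.6 ± 0.84 CPM in control libraries, a 5.42-fold rise. EIF2AK1, the kinase that responds to heme, fell 1.52-fold. EIF2AK4, which encodes GCN2, was not called (log2 fold change 0.06), nor was its activator GCN1 (0.12) or EIF2AK3 (0.04).

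In vertebrates 8 of the cytosolic enzymes in these data sit in the multi-synthetase complex, held by the scaffold proteins AIMP1, AIMP2 and EEF1E1. Of the 8 genes 4 were lower (DARS, EPRS, IARS and MARS), 2 were higher (KARS and RARS) and 2 were not called (LARS and QARS). The share called was 75% of the complex and 84.6% of the 13 cytosolic genes outside it, against 56.1% of all genes tested and 67.3% of those at 5 CPM or more. Their log2 fold changes ran from -0.33 to 0.49, against -0.89 to 0.59 for the 13 cytosolic genes outside the complex. Outside it 8 genes were lower, 3 higher and 2 not called. AIMP1 rose 1.24-fold, with 107.7, 105.8 and 96.8 CPM in HNRNPD siRNA libraries and 83.0, 86.9 and 80.7 CPM in control libraries. EEF1E1 fell by 0.32 on the log2 scale, to 8.01 ± 0.73 CPM in HNRNPD siRNA libraries, against 10 ± 0.24 CPM in control libraries (SD, n = 3 each). AIMP2 was not called (log2 fold change 0.10). A fraction of 0.187 of the exonic bases of EEF1E1 is shared with another gene on its strand. On the other strand AIMP1 shares a fraction of 0.116 with TBCK. AIMP2 shares 0.289 with EIF2AK1, which was lower (log2 fold change -0.61).

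TARS2, the mitochondrial threonyl-tRNA synthetase gene on chromosome 1 (150487364 to 150507609, plus strand), had the largest rise of all 37. It stood at 28.6, 31.0 and 27.5 CPM in HNRNPD siRNA libraries, against 15.3, 15 and 14.1 CPM in control libraries. The rise was 1.96-fold (log2 fold change 0.97, SE 0.08, edgeR adjusted p = 5.22e-09), each group was tight, and its exons overlap no other gene. AARS2, the alanyl enzyme, had 17.5, 22.0 and 21.7 CPM in HNRNPD siRNA libraries and 15.8, 16.2 and 15.5 CPM in control libraries (log2 fold change 0.37, SE 0.09, edgeR adjusted p = 0.00201). AARS2 replicate 1 was the lowest of its HNRNPD siRNA libraries but still above the controls. VARS2, the valyl enzyme, was at 55.1, 58.0 and 56.3 CPM in HNRNPD siRNA libraries and 42.5, 44.4 and 45.3 CPM in control libraries, a 1.28-fold rise (log2 fold change 0.36, SE 0.06, edgeR adjusted p = 7.44e-05), and a fraction of 0.22 of its exonic bases is shared with GTF2H4, which was not called.

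MARS2, the mitochondrial methionyl enzyme on chromosome 2 (197705369 to 197708387), was rare and fell most of its set. It had 1.81, 1.72 and 2.10 CPM in HNRNPD siRNA libraries and 3.05, 3.31 and 2.72 CPM in control libraries (log2 fold change -0.69, SE 0.18, edgeR adjusted p = 0.00258). LARS2, the leucyl enzyme, fell 1.46-fold, at 10.6 ± 0.72 CPM in HNRNPD siRNA libraries and 15.6 ± 0.87 CPM in control libraries. Both were lower in every HNRNPD siRNA library than in any control library. CARS2, the cysteinyl enzyme, was at 14.9, 16.5 and 15.3 CPM in HNRNPD siRNA libraries and 19.4, 18.3 and 18.6 CPM in control libraries, a 1.2-fold fall (log2 fold change -0.27, SE 0.08, edgeR adjusted p = 0.00803). IARS2, the isoleucyl enzyme, fell 1.15-fold. The 9 mitochondrial genes that were not called had log2 fold changes from -0.29 for PARS2 to 0.23 for FARS2. Both moved when 1 library was dropped: with each library left out in turn PARS2 ran from -0.56 to -0.02 and FARS2 from 0.08 to 0.39. PARS2, the prolyl enzyme, had the lowest level of the 37, with 0.44, 0.55 and 0.80 CPM in HNRNPD siRNA libraries and 0.99, 0.58 and 0.62 CPM in control libraries (SE 0.34). HARS2, the histidyl enzyme, was not called at a log2 fold change of -0.03 (SE 0.07), RARS2, the arginyl enzyme, at -0.02 (SE 0.08) and SARS2, the seryl enzyme, at 0.14 (SE 0.08). Exons of MRPS12 and CTC-360G5.8 cover a fraction of 0.57 of SARS2. RARS2 had 24.1, 21.6 and 20.7 CPM in HNRNPD siRNA libraries and 23.3, 22.0 and 21.9 CPM in control libraries. WARS2, the tryptophanyl enzyme, had 2.34, 2.91 and 3.57 CPM in HNRNPD siRNA libraries and 3.78, 3.17 and 3.05 CPM in control libraries (log2 fold change -0.18, SE 0.17, edgeR adjusted p = 0.403). In FARS2, the phenylalanyl enzyme, the levels were 3.35, 3.79 and 2.40 CPM in HNRNPD siRNA libraries and 2.86, 2.64 and 2.65 CPM in control libraries (log2 fold change 0.23, SE 0.18, edgeR adjusted p = 0.292). In all 3 genes the groups overlapped. The others not called were EARS2 (log2 fold change 0.16), NARS2 (0.13) and YARS2 (-0.08), for the glutamyl, asparaginyl and tyrosyl enzymes.

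HARS and HARS2 lie head to head on chromosome 5, and their RefSeq promoter windows overlap by 184 bases, shown here because HARS rose and HARS2 was not called. The bases are those of the minus strand, the strand of HARS, at chr5:140691321-140691504, with no motif marked.
HARS and HARS2: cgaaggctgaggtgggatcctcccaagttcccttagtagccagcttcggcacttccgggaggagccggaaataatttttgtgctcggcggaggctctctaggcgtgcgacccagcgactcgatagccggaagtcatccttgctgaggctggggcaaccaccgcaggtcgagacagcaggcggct

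HARS stood at 89.8, 90.1 and 94.9 CPM in HNRNPD siRNA libraries, against 72.9, 71.6 and 69.0 CPM in control libraries. HARS2 stood at 39.5, 34.9 and 39.0 CPM in HNRNPD siRNA libraries and 40.0, 40.2 and 35.5 CPM in control libraries. The first pair of groups did not overlap and the second did.

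For 16 pairs of genes whose enzymes charge the same amino acid, the ratio of the cytosolic to the mitochondrial mRNA was compared in each library. The ratio was lower in every HNRNPD siRNA library than in any control library for 8 pairs, higher for 5 and overlapping for 3. For comparison, the levels of single genes did not overlap for 62.6% of all genes tested and 72.3% of those at 5 CPM or more, and the share over other gene pairs was not computed. No test of a pair can go below a two-sided exact permutation p of 0.1 with 3 against 3 libraries, which became 0.123 after adjustment over the 16 pairs. The threonine pair moved most. The log2 ratio of TARS to TARS2 was 2.89, 2.61 and 2.88 in HNRNPD siRNA libraries and 4.18, 4.22 and 4.33 in control libraries, a 2.73-fold lower ratio. For alanine it was 3.42, 3.14 and 3.20 in HNRNPD siRNA libraries and 4.36, 4.30 and 4.29 in control libraries, where AARS fell and AARS2 rose. These were the 2 pairs whose members were called in opposite directions. In 4 pairs both genes were called the same way. For cysteine and methionine both fell, with a lower ratio for cysteine (difference -0.61) and a higher one for methionine (0.37), since MARS2 fell more than MARS. For isoleucine and valine both moved together and the ratios overlapped, at differences of -0.08 and 0.08.

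The ratio was also lower for phenylalanine (FARSA over FARS2, difference -0.83), asparagine (-0.49), glutamate (EPRS over EARS2, -0.48), tyrosine (-0.46) and serine (-0.40). Ratios were higher for tryptophan (0.76), arginine (0.51), leucine (0.51) and histidine (0.39). The leucine ratio rose with LARS not called and LARS2 lower. For proline (EPRS over PARS2) the groups overlapped, with log2 ratios of 8.19 to 9.24 in HNRNPD siRNA libraries and 8.30 to 9.11 in control libraries.

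**Figure D3:**
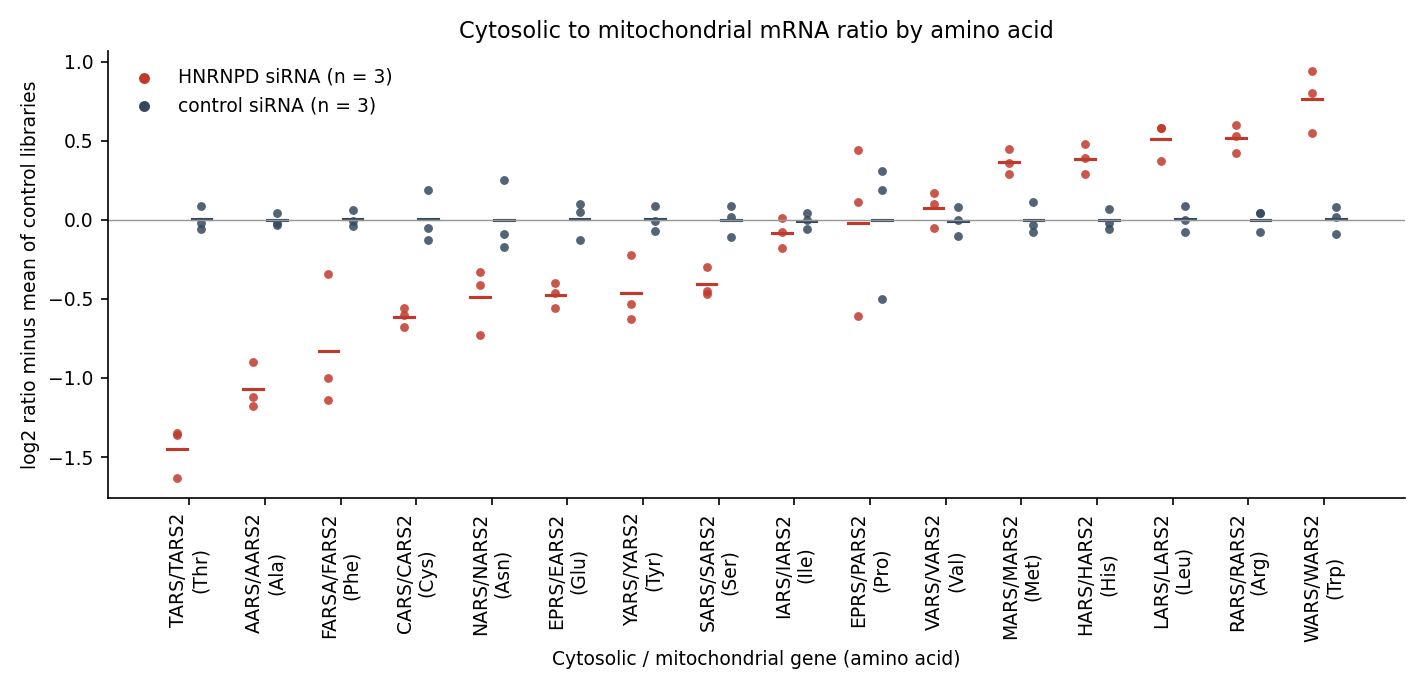
Log2 ratio of the cytosolic to the mitochondrial synthetase mRNA for each amino acid in each library, minus the mean of the 3 control libraries, with HNRNPD siRNA libraries in red on the left and control libraries in dark blue on the right; bars are group means. The threonine, alanine and phenylalanine pairs lie lowest (-1.45, -1.07 and -0.83) and the tryptophan pair highest (0.76).

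Levels were compared between genes per length, in TPM, the counts per base of exon scaled to one fixed sum in each library, computed from the counts and the exonic length in the table. That length joins the exons of all isoforms, so genes with many alternative exons read low. The cytosolic genes ran from 10.1 ± 0.94 TPM for TARSL2 to 155.6 ± 2.61 TPM for NARS in HNRNPD siRNA libraries, and from 9.06 ± 1.06 to 197.1 ± 23 TPM for the same genes in control libraries (SD, n = 3 each). In control libraries NARS, AARS, EPRS, TARS and GARS were the highest, and all 5 fell. The mean levels of NARS and AARS, 197.1 ± 23 and 156.0 ± 11.7 TPM, lay further apart than either SD, whereas those of LARS and SARS, 74.0 ± 3.04 and 73.4 ± 2.40 TPM, did not. IARS2 was the most abundant mitochondrial gene, at 79.5 ± 6.94 TPM in HNRNPD siRNA libraries and 89.9 ± 4.30 TPM in control libraries. It stood above its cytosolic partner in both groups, since IARS had 29.8 ± 4.57 TPM in HNRNPD siRNA libraries and 35.5 ± 2.85 TPM in control libraries. For histidine the TPM ratio of HARS to HARS2 was 0.982 ± 0.064 in HNRNPD siRNA libraries and 0.747 ± 0.033 in control libraries, so HARS2 was the higher of the pair in control libraries, while in HNRNPD siRNA libraries the pair differed by less than its spread. In the other 14 pairs the cytosolic gene had the higher mean level in both groups. MARS2, WARS2 and PARS2 were below 2.3 TPM in both groups.

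Summed over the 21 cytosolic genes, the level was 1020.3, 1143.0 and 1080.1 TPM in HNRNPD siRNA libraries and 1336.6, 1333.9 and 1187.1 TPM in control libraries. For the 16 mitochondrial genes it was 201.3, 231.9 and 207.7 TPM in HNRNPD siRNA libraries and 217.8, 215.5 and 196.7 TPM in control libraries. The first sums did not overlap between the groups and the second did. The cytosolic sum over the mitochondrial sum was 5.07, 4.93 and 5.2 in HNRNPD siRNA libraries, against 6.14, 6.19 and 6.04 in control libraries. The 11 genes described as ATF4-induced, listed with earlier results known, summed to 678.6 ± 35.3 TPM in HNRNPD siRNA libraries and 909.9 ± 66.5 TPM in control libraries. The other 10 cytosolic genes summed to 402.6 ± 26.2 TPM in HNRNPD siRNA libraries and 376.0 ± 20.6 TPM in control libraries (SD, n = 3 each). Among these 10, FARSA and DARS fell while 4 genes rose, so their sum hides falls outside the list.

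**Figure D4:**
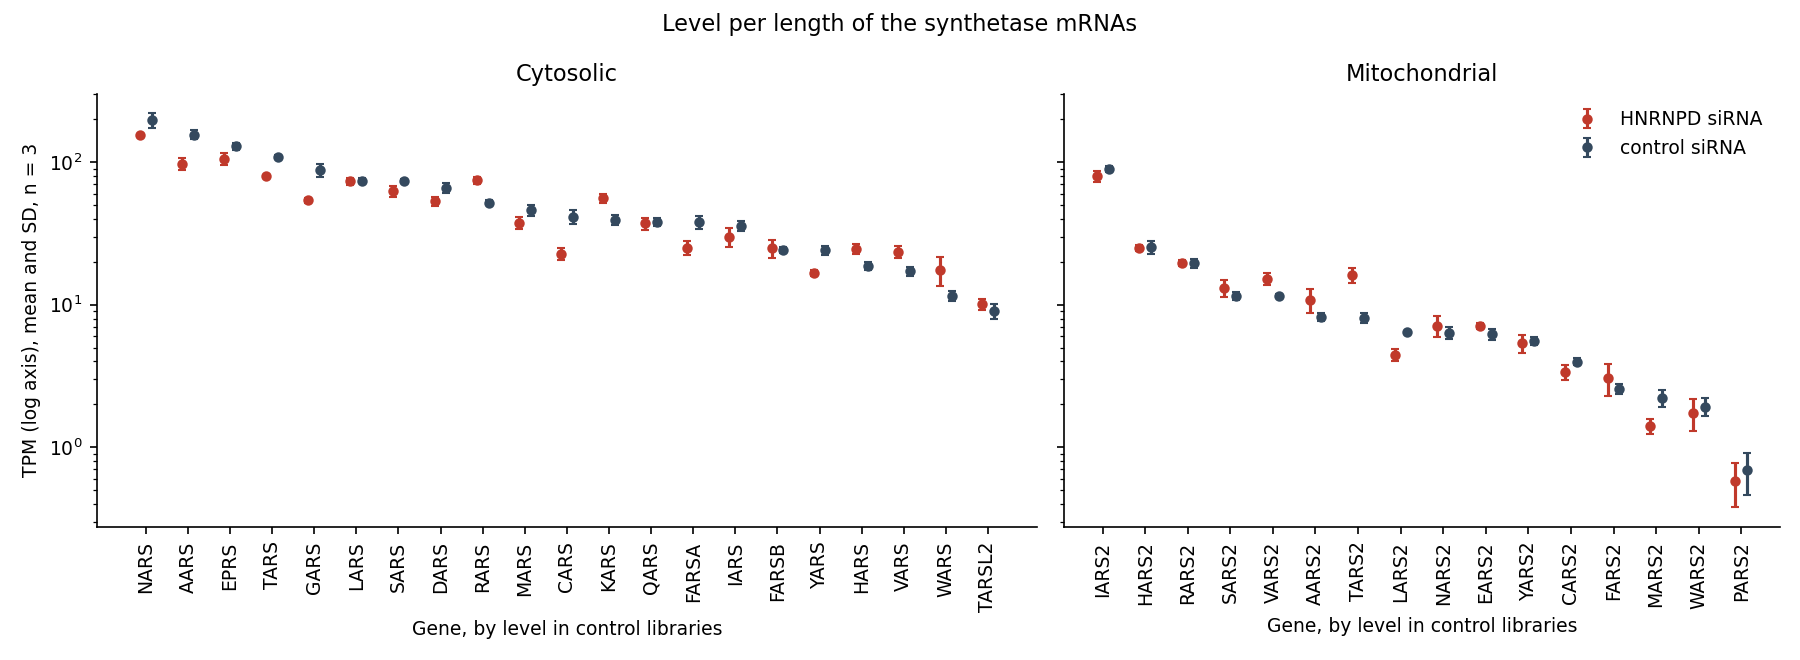
Mean level per length in TPM, on a log axis, with SD (n = 3) for each synthetase gene, HNRNPD siRNA in red on the left and control in dark blue on the right, ordered by the control mean within the cytosolic and the mitochondrial set. NARS and AARS lead the cytosolic set, IARS2 leads the mitochondrial set, and PARS2 is lowest.

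Of 11 genes whose products act beside the synthetases in tRNA charging, 3 were higher, 3 were lower and 5 were not called. These shares, 27.3% each way, were near the 28.4% higher and 27.8% lower of all genes tested. The genes of both D-aminoacyl-tRNA deacylases, which remove wrongly attached D-amino acids, were lower. DTD1 fell 1.83-fold to 39.2 ± 4.56 CPM in HNRNPD siRNA libraries, against 71.9 ± 6.10 CPM in control libraries, and DTD2 fell 1.89-fold to 5.15 ± 0.66 CPM in HNRNPD siRNA libraries, against 9.76 ± 1.21 CPM in control libraries (SD, n = 3 each). GATB rose 1.71-fold and GATC fell 1.23-fold. Both encode subunits of the mitochondrial amidotransferase that makes glutaminyl-tRNA, and the third subunit gene, QRSL1, was not called (log2 fold change -0.09). Other genes cover a fraction of 0.476 of the exons of GATC. SEPSECS, the last enzyme of selenocysteinyl-tRNA synthesis, rose 1.59-fold. AARSD1, which removes wrongly attached amino acids from alanine tRNA, rose 1.28-fold, with a fraction of 0.342 of its exonic bases shared with other genes.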

How the data were processed

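Total RNA of A549 cells was extracted with Trizol, made into TruSeq RNA libraries and sequenced on a HiSeq, per the labels' protocols. The authors deposited raw read counts per gene for 6 libraries, with exon positions and an exonic length in bases per gene. The submitters' processing notes name Bowtie 0.12.2 and the builds mm8 and GRCh38 with no role. All 37 synthetase genes matched human GENCODE positions on GRCh38. For the counting program and the use of strand, the sources used here give nothing. Of 56303 rows, 17872 held no count, and 28 gene names had become spreadsheet dates. Totals were 37151094 to 43005090 counts per library.

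From these counts edgeR 4.0.16 in R 4.3.3 was run with the low-count filter filterByExpr, TMM scaling and the robust quasi-likelihood test on group alone, with Benjamini-Hochberg adjustment over 20465 genes and a threshold of 0.05. CPM used TMM-scaled totals, and TPM used the deposited length. Ratios within pairs were tested by a two-sided exact permutation test over libraries. The fit was tested on simulated data. Promoter windows came from RefSeq on GRCh38.p14. Alternatives were DESeq2 1.42.0, limma 3.58.1 (voom), other scalings and filters, halved counts, removal of mitochondrial-chromosome genes, a replicate block, and each library left out.

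The genes, lists and motifs were chosen with earlier results of these data known. Full statistics were given for the 5 largest called rises and falls and for the partners of those genes, with up to 4 genes of smallest p per other list. IRF1, GBP1, ASNS and the other list genes beyond this rule were named after their values were seen.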

Additional observations from a re-analysis of the deposited data

How the results depend on the processing

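All 24 called synthetase genes kept their call and direction in all 360 combinations of gene and processing setting, and the 13 others were never called. The counts of 8 higher and 16 lower, 5 and 12 cytosolic, and 3 and 4 mitochondrial held under those 15 settings. Over the 31 genes that share under 0.1 of their exonic bases with a neighbour, a choice made after seeing the data, 5 were higher and 15 lower, of which 3 and 11 were cytosolic. The cytosolic median ranged from -0.32 to -0.24 with single libraries left out. The mitochondrial median, -0.02, turned to 0.01 with a filter of at least 1 CPM in 3 libraries, and ranged from -0.06 to 0.02 with single libraries left out. PARS2 was not tested under that filter. Uncalled values near 0 changed sign: FARSB was -0.00022 with limma-voom, -0.01 without a filter and -0.07 to 0.12 with libraries left out, and RARS2 was 0.01 with the filter at 1 CPM. With libraries left out, RARS2 ranged from -0.09 to 0.02, QARS from -0.13 to 0.00013, HARS2 from -0.10 to 0.03 and YARS2 from -0.15 to 0.02. The cause was not tested. Without HNRNPD siRNA replicate 3 the log2 fold changes of WARS and IARS were 0.39 and -0.18, in place of 0.59 and -0.28. Pairs without overlap numbered 5 to 6 higher and 8 to 9 lower with libraries left out.

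Same-numbered libraries correlated at 0.0434, 0.0271 and 0.0185 after group means were removed, and HNRNPD siRNA replicate 3 correlated best with control replicate 2 (0.0315), so the numbers were not treated as pairs. With the replicate block 5792 genes were higher and 5737 lower, against 5803 and 5687 without it, and the block changed no call of a synthetase gene. Depth limits the rare genes most: PARS2 had 16 to 42 counts.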

Other observations

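The synthetases form 2 structural classes with unrelated catalytic folds. Of 18 class I genes 8 were lower, 4 higher and 6 not called, with a median log2 fold change of -0.13. Of 18 class II genes 7 were lower, 4 higher and 7 not called, with a median of -0.01. The share called in either direction was 66.7% of class I and 61.1% of class II. These were near the 56.1% of all genes tested and the 67.3% of those that averaged 5 CPM or more. EPRS holds a site of each class and was in neither count. The difference between the classes was not tested.

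HNRNPD siRNA replicate 3 stood at the far end of the second principal component of all genes (5.3% of the variance). Within the HNRNPD siRNA group, the lowest level of a gene was in replicate 3 for 16 of the 37 synthetase genes, in replicate 1 for 13 and in replicate 2 for 8. The highest level was in replicate 1 for 14 genes, in replicate 2 for 13 and in replicate 3 for 10.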
